A study of Homo sapiens with 5 samples.

Results

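The 38 genes described here belong to the YAP/TAZ and TGF-beta pathways and were chosen by symbol, by their place in the pathways. They were chosen with earlier results of these data known. Of them, 37 were listed in at least 1 of 5 RNA libraries made from MDA-MB-231, an established line of human triple-negative breast cancer, and 36 in all 5, out of 12497 genes listed in at least 1 library. ID2, an inhibitor of helix-loop-helix transcription factors, was listed in none. Each of the 5 groups is 1 library of total RNA from this one line grown in serum. The library labelled si-LY6E-DT, called the silencer library below, came from cells given a Smart Silencer against a long noncoding RNA, LY6E-DT. Its negative control is called si-NC. The library labelled si-HNRNPC came, per its label, from cells transfected against HNRNPC, an RNA-binding protein of the nucleus with a preference for U-rich stretches. The RIP input is RNA of lysed cells, and the immunoprecipitate is RNA recovered from lysate with magnetic beads carrying an antibody to HNRNPC, where RIP stands for RNA immunoprecipitation. The protocol text couples target and reagent crosswise, so the label of each library is followed. An IgG library was not analysed here. With 1 library per group there is no replicate error, no test and no p-value, and every difference below compares libraries.

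YAP and TAZ are transcriptional coactivators that enter the nucleus when the Hippo kinases, which include LATS2, are inactive, and act there through TEAD factors. Their best known targets are CTGF and CYR61, secreted matricellular proteins, and ANKRD1, a nuclear ankyrin-repeat protein. Several targets, such as AMOTL2, LATS2 and AJUBA, themselves regulate the pathway. TGF-beta ligands bind the receptor kinases encoded by TGFBR2 and TGFBR1, which phosphorylate SMAD3, and SMAD complexes induce targets that include their own inhibitors SMAD7, SKIL and PMEPA1. BMP signals act through a related branch whose classical targets are ID1 and ID3. In invasive breast cancer cells both pathways are studied for their part in matrix production and motility.

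The values are FPKM, fragments scaled to gene length and to the fragments of the library, so levels of different genes can be set side by side. The libraries differed in composition. In the RIP input 29.8% of all FPKM belonged to mitochondrially encoded mRNAs, and 7.20% to 9.92% did elsewhere. HNRNPC mRNA was at 48.8 FPKM in the si-HNRNPC-labelled library and 52.2 in si-NC, which does not bear out the label, so directions from it are those of a library so labelled. It was lowest in the silencer library, at 40.1, and highest in the RIP input, at 67.4, with 58.4 in the immunoprecipitate. LY6E, the gene next to LY6E-DT, was at 12.8 FPKM in the silencer library, 20.9 in si-NC, 1.69 in the RIP input, 0.638 in the immunoprecipitate and 4.24 in the si-HNRNPC-labelled library. With the level of LY6E-DT not analysed here, the label of the silencer library is likewise taken as given. The values come from bulk RNA, in which fewer cells of a type and less RNA per cell cannot be told apart. Of 5 markers that this line should express, VIM, CD44, CAV1, MSN and AXL, all were listed in every library, with CAV1 lowest in the RIP input at 8.12 FPKM. Of 5 markers that it should lack or hold at low levels, 2 were listed in every library, the receptor gene ERBB2 at 1.77 to 8.61 FPKM and the epithelial adhesion gene EPCAM at 0.853 to 3.30. The other three, the luminal markers ESR1 and PGR and the epithelial cadherin CDH1, were listed in no table. Of 5 leukocyte markers 2 were listed. PTPRC and CD3E were in no table, whereas the lysosomal macrophage marker CD68 was at 63.3 in the RIP input and 74.8 in the si-HNRNPC-labelled library, against 4.86 in si-NC, 7.86 in the silencer library and 17.4 in the immunoprecipitate. Of 6 fibroblast markers 3 were listed, in the silencer library and si-NC alone, where they summed to 3.82 and 2.41 FPKM. Of 4 endothelial markers 1 was listed, at 1.20 FPKM or less. What part such differences have in the changes below was not tested.

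Summed, the members held 1.34% of all FPKM in the silencer library, 1.11% in si-NC, 0.545% in the RIP input, 1.28% in the immunoprecipitate and 0.716% in the si-HNRNPC-labelled library. The median member was at 20.4, 18.2, 7.14, 17.3 and 11.03 FPKM in that order, so it was lowest in the RIP input. The classical YAP/TAZ targets were abundant in every library. CYR61 was at 577 FPKM in the silencer library, 385 in si-NC, 452 in the RIP input, 145 in the immunoprecipitate and 217 in the si-HNRNPC-labelled library, and ranked between 19 and 109 in tables of at least 11306 genes. CTGF had the smallest spread of this trio, from 81.3 FPKM in the si-HNRNPC-labelled library to 148 in the immunoprecipitate. ANKRD1 was at 148 in the silencer library, 213 in the immunoprecipitate, 240.0 in si-NC, 335 in the RIP input and 471 in the si-HNRNPC-labelled library. Its order is thus nearly the reverse of that of CYR61 among the 4 libraries that are not immunoprecipitates, since the silencer library had the most CYR61 and the least ANKRD1. AXL, a receptor tyrosine kinase, stayed between 165 and 351 FPKM.

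At the other end, SMAD6, an inhibitory SMAD of the BMP branch, did not exceed 0.828 FPKM in any library and entered no comparison. The widest span belonged to ANGPTL4, a secreted inhibitor of lipoprotein lipase, whose FPKM in the silencer library was 337 times that in the immunoprecipitate. PMEPA1, a membrane protein that sequesters SMADs, spanned 156 times, the matricellular protein THBS1 spanned 94.2 times, the actin-binding protein TAGLN spanned 79.8 times and SKIL, a SMAD corepressor, spanned 66.3 times. CTGF spanned 1.82 times and SMAD3, the SMAD that relays TGF-beta signals, 2.002 times. Of the members that reached 2-fold in none of the 5 main comparisons, MYOF, a membrane repair protein, lay between 29.4 and 62.4 FPKM. IGFBP3, a secreted binder of insulin-like growth factors, lay between 3.42 and 11.1. ARHGEF17, a guanine nucleotide exchange factor, lay between 0.795 and 7.20, and TGIF1, a SMAD corepressor, between 4.35 and 10.96.

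**Figure D1:**
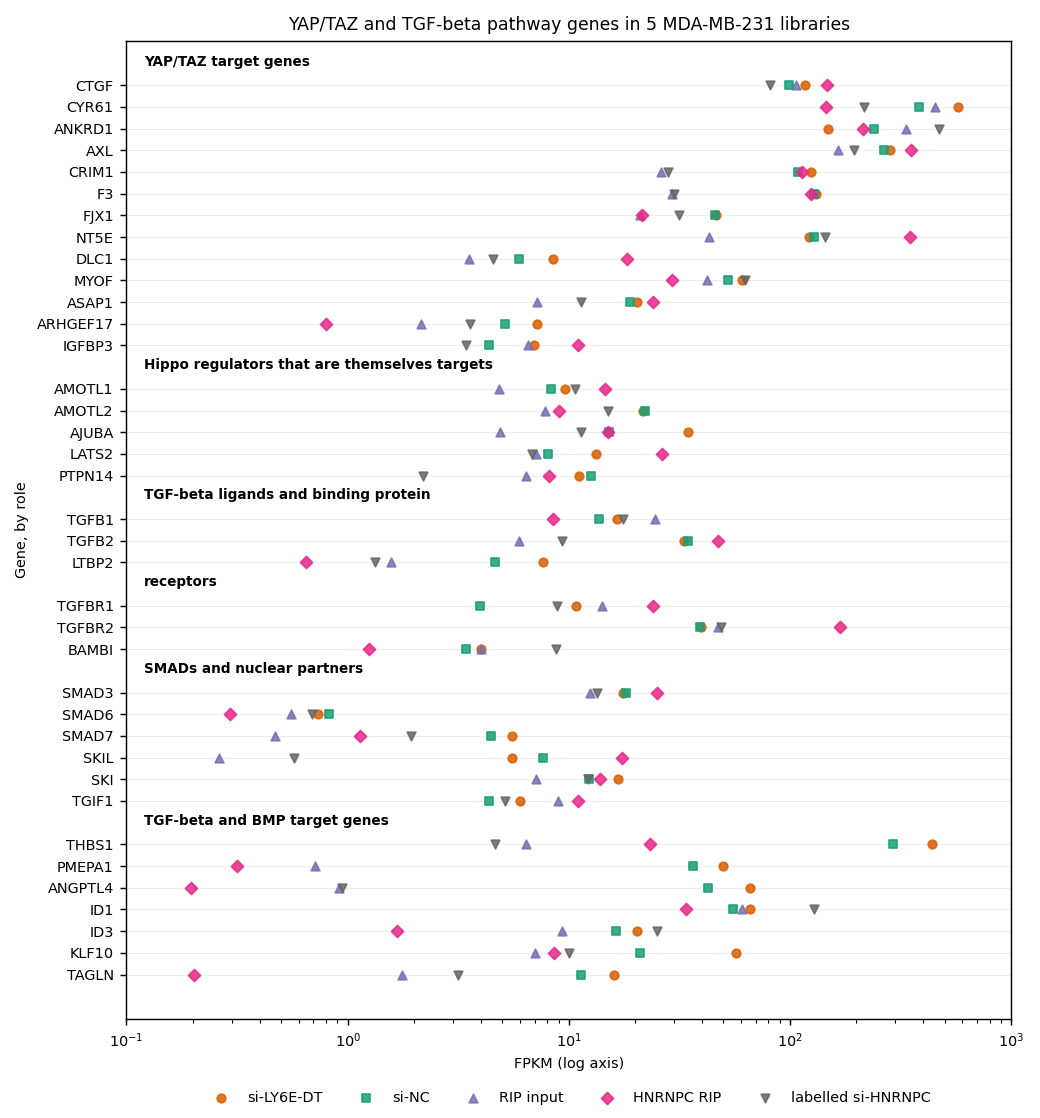
FPKM on a log axis of the 37 listed members, grouped by role; each symbol is 1 library. CTGF stays between 81.3 and 148 FPKM, while THBS1, PMEPA1, ANGPTL4 and TAGLN split into high values in the silencer library and si-NC and low values in the other libraries.

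The first comparison asks what followed the targeting of LY6E-DT. Genes are said to have risen or fallen when (FPKM + 1) differed at least 2-fold, where both libraries list the gene and its mean is at least 1 FPKM, and log2 changes are on that scale, which understates low genes. Of 36 members tested, 3 rose and none fell in the silencer library against si-NC, where 1.66% of all 10473 genes rose and 0.888% fell. KLF10, a transcription factor induced early by TGF-beta, was at 56.9 FPKM in the silencer library, 21.1 in si-NC, 7.04 in the RIP input, 8.62 in the immunoprecipitate and 10.03 in the si-HNRNPC-labelled library. It was highest in the silencer library and rose by 1.39 on the log2 scale, a size that 0.888% of genes reached in either direction. TGFBR1 (chromosome 9, 99104038 to 99154192, GRCh38, plus strand), the type I TGF-beta receptor, was at 10.8 FPKM against 3.95 in si-NC, which was its lowest library, and rose by 1.25. Its levels in the RIP input, the immunoprecipitate and the si-HNRNPC-labelled library were 14.2, 24.1 and 8.82, so that the silencer library lay within the span of the others. AJUBA (chromosome 14, 22971174 to 22982642, GRCh38, minus strand), a LIM protein that restrains LATS kinases, was at 34.7 FPKM in the silencer library and between 4.89 and 15.1 elsewhere, and rose by 1.15. AJUBA is uncertain because it shares exons with another coding gene model on the same strand. With a pseudocount of 5 in place of 1, KLF10 stayed past 2-fold, while AJUBA and TGFBR1 came to 0.98 and 0.82.

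At any size, 29 of 36 members had a value above 0 in that comparison, or 80.6%, where 55.6% of all genes tested had, and their median log2 change was 0.25 against 0.04 for all genes. All 7 TGF-beta and BMP targets tested were above 0, with a median of 0.46 and KLF10 past 2-fold. THBS1 was at 437 FPKM against 291, ANGPTL4 at 66.1 against 42.7, PMEPA1 at 49.7 against 36.3, TAGLN at 16.05 against 11.4, ID1 at 66.3 against 55.3 and ID3 at 20.3 against 16.4. Among the 13 YAP/TAZ targets 11 were above 0 and the median was 0.19, with CYR61 at a log2 difference of 0.58. ANKRD1 had the lowest value of all members at −0.69, from 148 FPKM against 240.0. The Hippo kinase LATS2 was at 13.2 against 8.08 FPKM (0.65), while its partners in feedback AMOTL2 (21.7 against 22.1) and PTPN14 (11.2 against 12.6) were nearly level. Of the other ligand, receptor and SMAD genes, LTBP2, of the latent TGF-beta binding family, was at 7.62 against 4.62 FPKM (0.62). TGFB1 was at 16.4 against 13.7 FPKM, TGFB2 at 33.3 against 34.6, TGFBR2 at 39.8 against 39.1 and SMAD3 at 17.6 against 18.2. The ratio of TGFBR2 to TGFBR1, which does not depend on how a library is scaled, was 3.68 in the silencer library and 9.90 in si-NC. The inhibitors diverged in direction, with SMAD7 at 5.53 against 4.44 FPKM, SKI at 16.7 against 12.3, TGIF1 at 6.02 against 4.35 and SKIL at 5.56 against 7.64. SKIL had a log2 difference of −0.40.

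**Figure D2:**
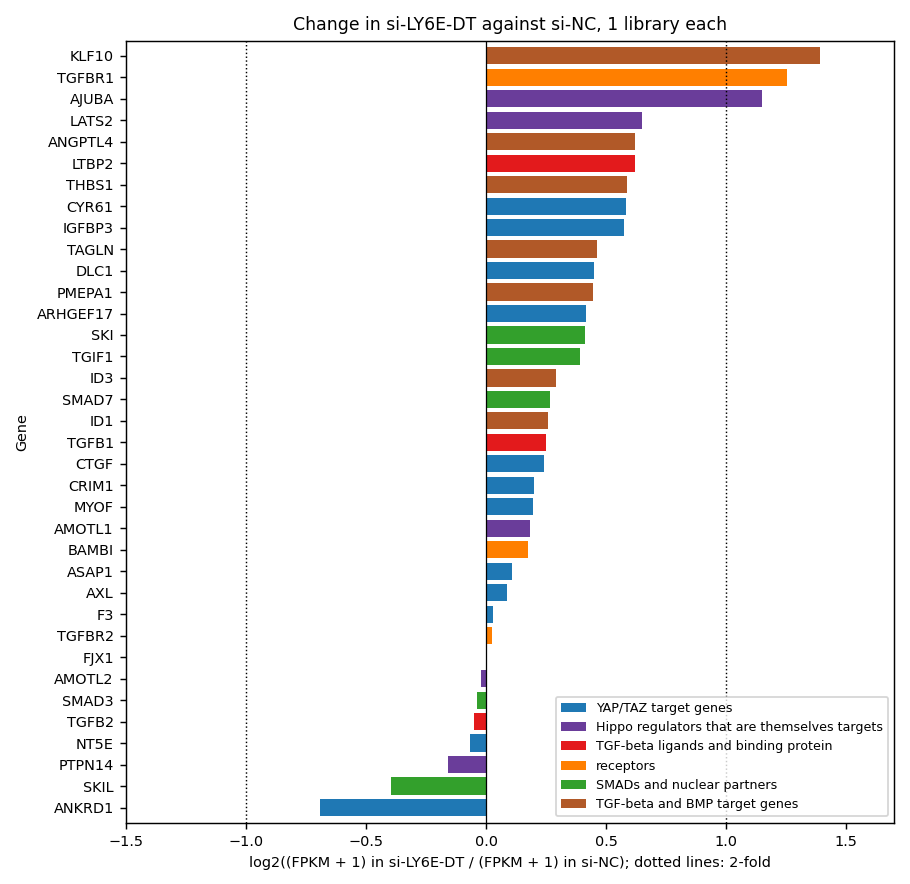
Bars give log2((FPKM + 1) in the silencer library / (FPKM + 1) in si-NC) for the 36 members tested, coloured by role, with dotted lines at 2-fold. KLF10, TGFBR1 and AJUBA pass the line at 1.39, 1.25 and 1.15, and ANKRD1 is lowest at −0.69.

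Other genes of the pathways, from lists chosen by symbol with earlier results of these data known, are given for comparison. Of 32 further YAP/TAZ pathway genes tested 1 rose and none fell, with a median of 0.00, where 1.66% of all genes rose and 0.888% fell. The riser was GADD45A, a growth-arrest gene of the YAP/TAZ signature, at 120.3 FPKM against 55.2. YAP1 itself was at 17.1 against 14.8 FPKM and WWTR1, which encodes TAZ, at 5.66 against 6.96, both named after their values were seen, as the coactivators. Of 27 further TGF-beta genes none rose and 1 fell, with a median of 0.09. It was FSTL3, an activin-binding protein, at 4.18 against 14.7 FPKM.

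The members set si-NC and the silencer library apart from the RIP input and the si-HNRNPC-labelled library. The comparisons of si-NC with those libraries share si-NC, and the tables do not list the same genes, so they are given side by side. The labels make si-NC the control of the silencer library and do not say that it was prepared with the si-HNRNPC-labelled library. Against the RIP input, 16 of 36 members were at least 2-fold higher in si-NC and 1 was lower, where 14.2% of all 10264 genes were higher and 10.4% lower. Against si-NC, 10 of 35 members fell and 2 rose in the si-HNRNPC-labelled library, where 9.44% of all 10247 genes fell and 12.4% rose. The median log2 difference of the members was 0.81 for si-NC against the RIP input, beside 0.11 for all genes, and −0.41 for the si-HNRNPC-labelled library against si-NC, beside 0.04 for all genes. Among the 36 members listed in all libraries, 22 were higher in both si-NC and the silencer library than in both the RIP input and the si-HNRNPC-labelled library, and 3 (ANKRD1, TGFB1 and TGFBR2) were lower. Of all 10731 genes so listed, 32.95% had the first order and 28.5% the second.

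Among the members, the largest of these differences were in TGF-beta targets. THBS1 (chromosome 15, 39581079 to 39599466, GRCh38, plus strand) was at 437 FPKM in the silencer library and 291 in si-NC, but at 6.42 in the RIP input, 23.4 in the immunoprecipitate and 4.64 in the si-HNRNPC-labelled library. It was thus among the 100 most abundant genes in the first pair, at ranks 34 and 63, and at ranks 5040 and 6499 in the input and the si-HNRNPC-labelled library. ANGPTL4 was at 66.1 and 42.7 FPKM in the silencer library and si-NC, and at 0.911, 0.196 and 0.941 in the RIP input, the immunoprecipitate and the si-HNRNPC-labelled library. PMEPA1 was at 49.7 and 36.3 in the first pair, at 0.715 in the RIP input and at 0.318 in the immunoprecipitate, and was not listed in the table labelled si-HNRNPC. TAGLN was at 16.05 and 11.4 FPKM in the first pair, 1.76 in the RIP input, 0.201 in the immunoprecipitate and 3.15 in the si-HNRNPC-labelled library. For each of these genes the first pair did not overlap the other libraries. PMEPA1 and ANGPTL4, like SMAD7 and SKIL, were under 1 FPKM in the RIP input and passed the filter through their level in si-NC. ANGPTL4 and SKIL, at 0.941 and 0.572 FPKM in the si-HNRNPC-labelled library, passed it through si-NC in that comparison as well. KLF10 was 1.46 higher on the log2 scale in si-NC than in the RIP input and fell by 1.00 in the si-HNRNPC-labelled library, at the threshold. The BMP targets did not follow. ID1 was at 55.3 FPKM in si-NC, 61.0 in the RIP input and 128 in the si-HNRNPC-labelled library, where it rose by 1.20, and ID3 was at 16.4, 9.35 and 25.02. The call on ID1 is lost under quantile normalization and under rescaling.

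The ligands parted in the same way. TGFB2 was at 34.6 FPKM in si-NC, 5.95 in the RIP input and 9.32 in the si-HNRNPC-labelled library, whereas TGFB1 was at 13.7, 24.6 and 17.5. The ratio of TGFB2 to TGFB1 was 2.02 in the silencer library, 2.52 in si-NC, 0.242 in the RIP input and 0.531 in the si-HNRNPC-labelled library, so the more abundant ligand mRNA differed between the pairs. LTBP2, a matrix protein, was at 7.62 FPKM in the silencer library, 4.62 in si-NC, 1.58 in the RIP input, 0.652 in the immunoprecipitate and 1.33 in the si-HNRNPC-labelled library. The first pair was above the rest. The receptors did not follow. TGFBR1 was at 3.95 FPKM in si-NC against 14.2 in the RIP input, the only member called lower there. It was at 10.8 in the silencer library and 8.82 in the si-HNRNPC-labelled library, so the pairs overlapped. TGFBR2 stayed between 39.1 and 48.9 FPKM in all 4 libraries that are not immunoprecipitates. BAMBI, a pseudoreceptor that dampens signalling, was at 3.43 FPKM in si-NC, 3.99 in the RIP input and 8.71 in the si-HNRNPC-labelled library, where it rose by 1.13, a call lost under rescaling and with a pseudocount of 5. Of the nuclear inhibitors, SKIL was at 7.64 FPKM in si-NC, 0.261 in the RIP input and 0.572 in the si-HNRNPC-labelled library, and SMAD7 was at 4.44, 0.468 and 1.94. SKI, at 12.3, 7.14 and 12.2, and SMAD3, at 18.2, 12.5 and 13.4, did not reach 2-fold. The ratio of SMAD3 to SMAD7 was accordingly 4.09 in si-NC, 26.7 in the RIP input and 6.88 in the si-HNRNPC-labelled library.

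YAP/TAZ targets were divided. F3, the tissue factor that starts coagulation, was at 129 FPKM in si-NC, 29.3 in the RIP input and 29.9 in the si-HNRNPC-labelled library. CRIM1, a transmembrane protein that binds BMPs, was at 108, 26.2 and 28.0 FPKM. In si-NC they were higher than in the RIP input by 2.099 and 2.01 on the log2 scale, and in the si-HNRNPC-labelled library they fell by 2.07 and 1.92. The silencer library held 131 and 125 FPKM of F3 and CRIM1, close to si-NC. PTPN14, a phosphatase that retains YAP in the cytoplasm, was at 12.6, 6.41 and 2.20, and fell by 2.09 in the si-HNRNPC-labelled library. NT5E, the ecto-nucleotidase CD73, was at 128 and 145 FPKM in si-NC and the si-HNRNPC-labelled library but at 43.0 in the RIP input. AMOTL2, an angiomotin that holds YAP outside the nucleus, was at 22.1, 7.79 and 15.1, the Arf GTPase-activating protein ASAP1 at 18.9, 7.16 and 11.4, and FJX1, a relative of the fly Golgi kinase four-jointed, at 46.0, 21.0 and 31.4. AMOTL2, ASAP1, FJX1 and NT5E, like AJUBA at 15.1, 4.89 and 11.4, passed 2-fold between si-NC and the RIP input and not between si-NC and the si-HNRNPC-labelled library, and this contrast was not tested. The call on FJX1 is lost under centring and with a pseudocount of 5, and that on ASAP1 with a pseudocount of 5. In contrast CTGF was at 98.7, 107 and 81.3 FPKM, a log2 difference of −0.11 and −0.28 in the order of the comparisons, and ANKRD1 was at 240.0, 335 and 471. CYR61 was at 385, 452 and 217 FPKM, with log2 differences of −0.23 and −0.83, the second past 2-fold under rescaling only. The ratio of THBS1 to CTGF was 3.75 in the silencer library and 2.95 in si-NC, against 0.0600 in the RIP input and 0.0571 in the si-HNRNPC-labelled library.

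**Figure D3:**
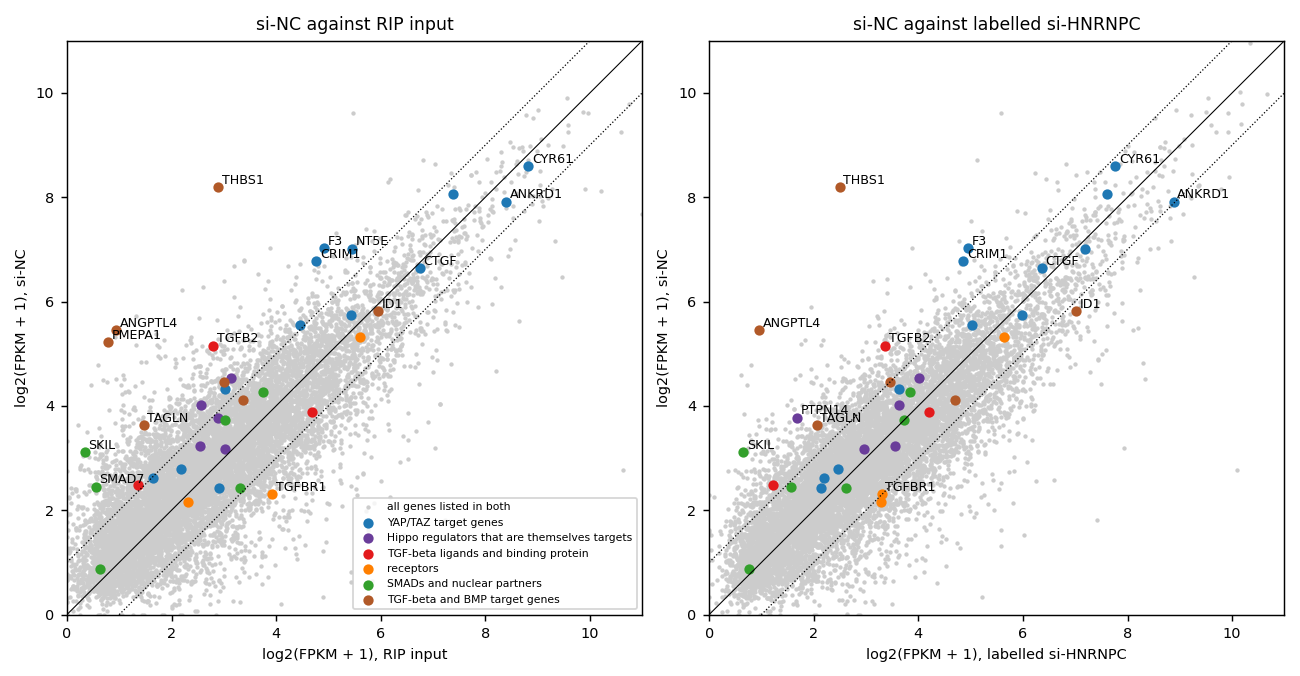
Each point is a gene, with log2(FPKM + 1) in si-NC on the vertical axis and in the RIP input (left) or the si-HNRNPC-labelled library (right) on the horizontal axis; dotted lines mark 2-fold and colours mark member roles. THBS1 and ANGPTL4 lie far above the lines in both panels, at log2 differences of 5.30 and 4.52 on the left, while CTGF lies near the diagonal.

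Because CTGF and ANKRD1 kept high levels where THBS1 did not, the bases just before their start sites are shown, from RefSeq on GRCh38.p14. Each is the 250 bases before the start on the gene's strand, with every match to the TEAD motif GGAATG, on either strand, and to the AP-1 motif TGANTCA in capitals. They lie at chr6:131951373-131951622 (minus strand), chr10:90921088-90921337 (minus strand) and chr15:39580829-39581078 (plus strand).
CTGF: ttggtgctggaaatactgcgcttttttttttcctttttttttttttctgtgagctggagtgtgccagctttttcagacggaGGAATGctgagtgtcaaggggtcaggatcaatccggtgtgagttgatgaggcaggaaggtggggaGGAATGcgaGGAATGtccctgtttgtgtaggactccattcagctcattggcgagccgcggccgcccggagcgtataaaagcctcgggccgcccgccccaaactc
ANKRD1: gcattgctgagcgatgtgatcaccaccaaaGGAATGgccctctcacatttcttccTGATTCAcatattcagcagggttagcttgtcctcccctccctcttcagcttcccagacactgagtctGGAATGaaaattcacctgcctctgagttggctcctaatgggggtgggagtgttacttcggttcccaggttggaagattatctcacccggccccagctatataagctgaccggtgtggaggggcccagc
THBS1: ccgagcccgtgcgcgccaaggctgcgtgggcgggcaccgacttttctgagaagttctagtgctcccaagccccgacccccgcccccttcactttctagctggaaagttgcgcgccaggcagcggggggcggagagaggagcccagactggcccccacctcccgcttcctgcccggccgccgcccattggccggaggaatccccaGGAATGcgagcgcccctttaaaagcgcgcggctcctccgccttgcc
CTGF holds 3 TEAD matches, whose first bases lie 169, 104 and 95 bases before the start. ANKRD1 holds 2, at 220 and 128 bases, and 1 AP-1 match at 195 bases. THBS1 holds 1 TEAD match at 46 bases, close to its start. The SMAD motif CAGAC also occurs in each, at 177 bases in CTGF, at 142 and 132 bases in ANKRD1 and at 108 bases in THBS1, and the match of ANKRD1 at 132 bases overlaps a TEAD match by 1 base. Windows from 250 bases before to 50 after the start were searched for the 30 members in the table, which has 56 start sites for them. TEAD matches lay in 7 of 16 windows of YAP/TAZ members and 6 of 40 of TGF-beta members, against 14.0% of all 35116 windows. SMAD matches lay in 11 of 16 and 24 of 40, against 45.3% of all windows, and AP-1 matches in 7 of 56, against 7.71%. Over the 14054 windows of genes listed in these libraries, the TEAD, SMAD and AP-1 shares were 11.4%, 43.3% and 5.21%. Windows of a gene can overlap and share a match, as for 1 TEAD match of TGIF1, and TGFBR1, TGIF1 and SMAD3 supply the most of the 40. Counted by gene, 7 of 13 YAP/TAZ members and 5 of 17 TGF-beta members had a TEAD match in at least 1 window. The share by gene over all genes was not computed. A gene with more windows has more places for a match, so these counts cannot be set against the 14.0% of windows. A match describes the letters only. CTGF, ANKRD1 and THBS1 were picked by their levels, and whether the matches relate to those levels was not tested.

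The si-HNRNPC-labelled library was also compared with the RIP input. Of 33 members 5 were at least 2-fold higher and 2 lower, where 9.11% of all 10185 genes were higher and 4.03% lower, and the members' median was 0.46 beside 0.15 for all genes. NT5E was higher by 1.73 on the log2 scale, ID3 by 1.33, AJUBA by 1.07, ID1 by 1.06 and SMAD7 by 1.00. SMAD7, at 1.94 against 0.468 FPKM, passed the filter through its level in the si-HNRNPC-labelled library alone. PTPN14 was lower, at 2.20 against 6.41 FPKM, as was CYR61, at 217 against 452, a call lost under quantile normalization. Centring on the median, quantile normalization or rescaling left 2 members higher, NT5E and ID3, with the median of all genes shifted by −0.15, −0.15 and −0.10. In those settings 6.53%, 6.19% and 6.99% of all genes were higher. THBS1, F3, CRIM1 and CTGF stayed under 2-fold here, and ANGPTL4 was under the filter.

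The last comparison asks which member mRNAs were recovered with HNRNPC. Of 32 members tested, 13 were at least 2-fold higher in the immunoprecipitate than in the RIP input and 4 were lower, where 24.2% of all 10284 genes were higher and 36.9% lower. The members' median was 0.70 beside −0.34 for all genes, and 23 of 32 were above 0, or 71.9%, where 43.4% of all genes were. SKIL was at 17.3 FPKM in the immunoprecipitate and 0.261 in the RIP input, a log2 difference of 3.86. SKIL passed the filter through its level in the immunoprecipitate alone. In si-NC it was at 7.64 FPKM, above its level in the input. NT5E was at 349.6 FPKM against 43.0 (2.99), and its level in the immunoprecipitate was above that in each of the other libraries. TGFB2 was at 47.1 against 5.95 FPKM (2.79), and TGFBR2 at 168 against 47.4 (1.81), which made TGFBR2 the 83rd most abundant mRNA of the immunoprecipitate. Both were highest there. TGFB1, by contrast, was at 8.48 against 24.6 FPKM and was lower by 1.44, so that the ratio of TGFB2 to TGFB1 was 5.55 in the immunoprecipitate and 0.242 in the input.

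All 5 Hippo regulators were above 0, and 3 were at least 2-fold higher. LATS2 was at 26.5 FPKM against 7.13, AJUBA at 15.03 against 4.89 and AMOTL1 at 14.6 against 4.85, while AMOTL2 was at 8.999 against 7.79. The ratio of AMOTL2 to AMOTL1, paralogous angiomotins, was 0.616 in the immunoprecipitate and 1.41 to 2.64 in the other libraries. Of the YAP/TAZ targets, DLC1, a GTPase-activating protein, was at 18.3 against 3.55 FPKM, CRIM1 at 113 against 26.2, F3 at 125 against 29.3, ASAP1 at 24.03 against 7.16 and AXL at 351 against 165. DLC1 was at 8.46 in the silencer library, 5.94 in si-NC and 4.53 in the si-HNRNPC-labelled library, so the immunoprecipitate held its highest level. CYR61 was the only YAP/TAZ target called lower, at 145 against 452 FPKM, and its relative CTGF, at 148 against 107, was not. The call on CYR61 is lost under quantile normalization. The ratio of CTGF to CYR61 was 1.02 in the immunoprecipitate and 0.202 to 0.375 in the other libraries. The BMP target ID3 was at 1.67 against 9.35 FPKM, and BAMBI at 1.25 against 3.99, a call lost under centring, quantile normalization, rescaling and a pseudocount of 5. ID1 was at 34.0 against 61.0 FPKM and was not called. THBS1 was at 23.4 against 6.42.

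The differences varied with transcript properties, taken from 1 coding transcript per gene in GENCODE 29. Tested genes were split into 4 length classes of near equal size. In the shortest class, with transcripts up to 2003 bases, 6.11% were at least 2-fold higher in the immunoprecipitate and 68.7% were lower, and in the longest class, above 4861.5 bases, 49.7% were higher and 9.66% lower. Of the members, 15 were in the longest class and 4 in the shortest. In the longest class 8 of 15 members were higher and none was lower, close to the share of all genes of that length. In the next longest class 4 of 5 members were higher (AJUBA, NT5E, TGFBR2 and AXL), where 27.8% of all genes were. Across the 32 members, the Spearman rank correlation of the log2 difference was 0.40 with transcript length, 0.61 with the length of the 3' UTR and −0.61 with GC content, and across 10223 genes it was 0.56, 0.58 and −0.55. Genes are not independent points, all share the same library pair, and these properties are related to each other.

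HNRNPC is known to bind runs of U, so runs of at least 9 were counted. They occurred in 17 of the 32 members tested, or 53.1%, against 30.4% of all genes tested. The members' median transcript was 4679 bases long, against 3134 for all genes. In the longest class 11 of 15 members and 1518 of 2556 genes had such a run. Of the 17 members with a run, 9 were at least 2-fold higher in the immunoprecipitate and 1 was lower. Among all genes with such a run 47.1% were higher and 11.2% lower. Of the 15 members without one, 4 were higher (NT5E, AJUBA, ASAP1 and AMOTL1) and 3 lower. Among all genes without one 14.1% were higher and 48.0% lower. SKIL had the most, with 5 runs in a transcript of 7182 bases. The windows below are 30 bases of the 3' UTR in leading members and in THBS1, each with its longest run among those of no more than 20 U in capitals, so that flanking bases fit in the window, to show what such a stretch looks like.
SKIL: aggacagUUUUUUUUUUUUUUUUguaaauc
TGFB2: ugaaucugUUUUUUUUUUUUUUaauuuggg
CRIM1: ccuggaUUUUUUUUUUUUUUUUUUcaaaca
F3: guuuagguucUUUUUUUUUUcaggaauaca
TGFBR2: uuuuguuuaugUUUUUUUUUcuuauucaag
THBS1: gugccagcagUUUUUUUUUUUcuaaagagu
The runs shown are 16 bases long in SKIL, 14 in TGFB2, 18 in CRIM1, 10 in F3, 9 in TGFBR2 and 11 in THBS1. Longer runs, not shown, occur in SKIL (31 bases), F3 (24) and THBS1 (21). A run does not go with enrichment in every member. ANKRD1, with a run of 30, was at 213 FPKM in the immunoprecipitate against 335 in the input, and PTPN14, with 3 runs in 12985 bases, was at 8.12 against 6.41, whereas NT5E had no run longer than 7. No binding position was measured.

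**Figure D4:**
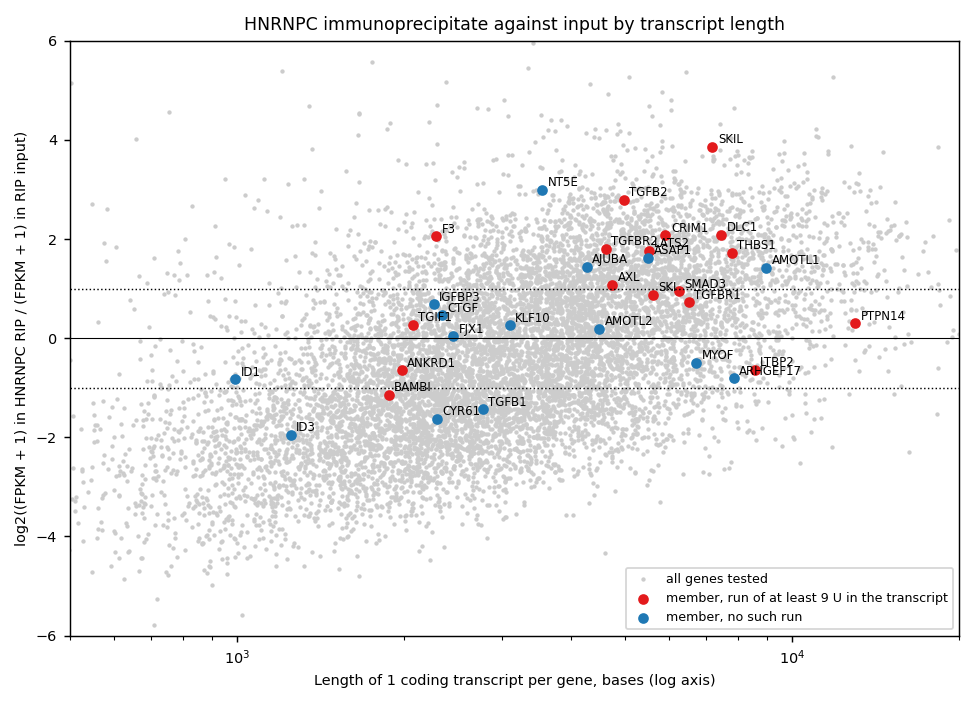
Points give log2((FPKM + 1) in the immunoprecipitate / (FPKM + 1) in the RIP input) against the length of 1 coding transcript per gene on a log axis; grey points are all genes tested, red members carry a run of at least 9 U and blue members do not. SKIL, NT5E and TGFB2 lie highest among the members at 3.86, 2.99 and 2.79, and ID3 lies lowest at −1.95.

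The counts depend on the library used as control. With si-NC in place of the RIP input, a setting added with the values in view, 8 of 36 members were at least 2-fold higher in the immunoprecipitate and 12 were lower, where 20.3% of all genes were higher and 38.4% lower, so the members' shares lay near those of all genes. The members' median was −0.11 beside −0.48 for all genes. Some calls against the RIP input were not made against si-NC. CRIM1 was at 113 FPKM in the immunoprecipitate and 108 in si-NC, F3 at 125 and 129, and AJUBA at 15.03 and 15.1. AXL was at 351 and 266, TGFB2 at 47.1 and 34.6, ASAP1 at 24.03 and 18.9, and AMOTL1 at 14.6 and 8.35. THBS1 was lower, at 23.4 and 291. SKIL, NT5E, DLC1, TGFBR2 and LATS2, at 7.64, 128, 5.94, 39.1 and 8.08 FPKM in si-NC, were still at least 2-fold higher in the immunoprecipitate. TGFBR1, IGFBP3 and TGIF1 passed 2-fold against si-NC only, at 24.1, 11.1 and 10.96 FPKM in the immunoprecipitate. In si-NC they were at 3.95, 4.36 and 4.35. Among those lower than in si-NC was ARHGEF17, at 0.795 and 5.14. Among further genes of the pathways, 14 of 30 YAP/TAZ genes were higher against the RIP input and 4 lower, with a median of 0.85. Over all genes 24.2% were higher and 36.9% lower against that input, with a median of −0.34. TEAD1, a TEAD factor, was at 74.0 FPKM against 2.37 and TAOK1, an upstream Hippo kinase, at 46.3 against 4.34. YAP1 and WWTR1 were at 108 against 22.9 and 63.6 against 19.1. In si-NC TEAD1, TAOK1, YAP1 and WWTR1 were at 33.9, 7.46, 14.8 and 6.96 FPKM. Of 30 further TGF-beta genes 13 were higher and 9 lower, with a median of 0.02. The BMP receptors BMPR1A and BMPR2 were at 31.7 against 3.27 and 38.5 against 4.25 FPKM.

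Levels of the further pathway genes are also given for si-NC, the RIP input and the si-HNRNPC-labelled library. TGFBI, a secreted TGF-beta target, was at 22.4 FPKM in si-NC, 6.85 in the RIP input and 3.10 in the si-HNRNPC-labelled library. GDF15, a stress-induced cytokine of the TGF-beta family, was at 0.257, 28.9 and 36.1, opposite in order. WWC1, a scaffold that promotes LATS activity, was at 21.9, 3.48 and 3.90 FPKM. TEAD1 was at 33.9, 2.37 and 15.1. GADD45A was at 55.2, 24.04 and 9.21. Of 30 further YAP/TAZ genes 9 were higher and 2 lower in si-NC than in the RIP input, and of 27 further TGF-beta genes 7 were higher and 3 lower. Over all genes 14.2% were higher and 10.4% lower. In the si-HNRNPC-labelled library, 8 of 28 further YAP/TAZ genes fell and 2 rose against si-NC, and 6 of 27 further TGF-beta genes fell and 2 rose. Over all genes 9.44% fell and 12.4% rose. Against the RIP input, 2 of 27 further YAP/TAZ genes were higher and 2 lower there, and 2 of 26 further TGF-beta genes were higher and 3 lower. Over all genes 9.11% were higher and 4.03% lower, so the shares called higher lay near that of all genes.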

How the data were processed

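RNA was sequenced from 5 libraries of MDA-MB-231 cells, 1 per group. The authors deposited 1 table per library with FPKM per gene, per the file headers. FastQC 0.11.7, cutadapt 1.17, HISAT2 2.1.0, StringTie 1.3.3 and build GRCh37 are named, without roles or settings, in the submitters' processing notes. Annotation, strand use and the filter on rows are not given in the sources used here, and read depth is unknown. Changes are log2((FPKM + 1) / (FPKM + 1)) for genes that both tables list with a mean of at least 1 FPKM, called at 2-fold over the whole table. With 1 library per group there is no replicate error and no p-value. The calling step was checked by putting known folds into the si-NC values. That check covers the arithmetic only and holds no noise between libraries. Positions, shared exons and 1 coding transcript per gene (principal isoform, then the longest) come from GENCODE 29 on GRCh38, matched by gene identifier. Promoters come from RefSeq on GRCh38.p14, with no row for ARHGEF17, ASAP1, CRIM1, CYR61, DLC1, KLF10, SKI and TAGLN. The members and lists were chosen with earlier results of these data known. Values are given for members that reach 2-fold in any comparison, and of the other pathway genes for at most 4 per comparison with the largest change at a mean of at least 5 FPKM, besides those said to be named later. Some genes of these lists are counted but not reported by name here. Scripts ran in Python 3.11.15 with pandas 2.3.3 and numpy 2.4.6.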

Additional observations from a re-analysis of the deposited data

How the results depend on the processing

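Each count of members past 2-fold and each median was recomputed under other pseudocounts, filters, scalings and thresholds, which gave 161 values for 15 results. Of these, 124 stayed within 1.5 times the count or 0.585 of the median, and 37 did not. Among 56 called member changes, 38 were called in every setting that gave a value, 18 were lost in at least 1, and 0 changed sign. A 1.5-fold threshold gave 6 members higher and 1 lower for the silencer library against si-NC (6.32% and 3.54% of all genes), and 4 higher and 13 lower for the si-HNRNPC-labelled library against si-NC (25.4% and 20.8%). It gave 17 higher and 8 lower for the immunoprecipitate against the RIP input (31.8% and 45.3%), 23 higher and 3 lower for si-NC against the RIP input (27.9% and 20.9%), and 11 higher and 5 lower for the si-HNRNPC-labelled library against the RIP input (23.6% and 12.2%). In that order, a 4-fold threshold gave 0 higher and 0 lower (0.210% and 0.153% of all genes), then 0 and 5 (1.72% and 0.956%). After these came 6 and 0 (9.30% and 17.0%), 8 and 0 (2.20% and 1.75%), and 0 and 0 (1.04% and 0.314%). With the RIP input as control, a setting added with the values in view, the silencer library had 20 members higher and 1 lower with a median of 1.08, where 15.9% of all genes were higher and 9.96% lower with a median of 0.15. With si-NC as control, added in the same way, the immunoprecipitate had 8 higher and 12 lower with a median of −0.11, where 20.3% of all genes were higher and 38.4% lower with a median of −0.48. A pseudocount of 5 left 1 member higher in the silencer library (0.401% of all genes) and 1 in the si-HNRNPC-labelled library against si-NC (6.03%). Against the RIP input it left 3 higher and 1 lower in the si-HNRNPC-labelled library (3.28% and 1.45%). A pseudocount of 0.1, centring and quantile normalization each gave 2 members lower in si-NC than in the RIP input. Of all genes, 13.9%, 13.0% and 12.5% were lower there in those settings. Quantile normalization also gave 1 higher in the si-HNRNPC-labelled library against si-NC (10.9% of all genes) and 2 lower in the immunoprecipitate (28.6%). In the si-HNRNPC-labelled library against the RIP input it gave 2 higher and 1 lower (6.19% and 5.77%). For that last comparison centring and rescaling gave 2 higher (6.53% and 6.99%) and a filter of 5 FPKM gave 1 lower (4.76%). Rescaling to the FPKM that remain once mitochondrial genes, ribosomal protein genes and the 20 highest are set aside gave 0 higher in the si-HNRNPC-labelled library against si-NC. It moved the split of all genes there from 12.4% higher and 9.44% lower to 9.05% and 12.6%. Centring shifted the median of all genes in the immunoprecipitate against the RIP input by 0.34, with 30.3% higher and 29.4% lower afterwards. The causes were not tested beyond what each setting does by construction. No paired analysis was possible because each group has 1 library. Leaving out a replicate was likewise not run. Read depth is unknown, so the counting error of low FPKM cannot be given.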
